A study of Mus musculus with 18 samples.

Results

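The solute carriers are the largest group of membrane transporters encoded in the mouse genome, and their mRNAs were followed here across polysome fractions of embryonic stem cells (ESCs) with and without the RNA helicase Ddx6. Members were protein-coding genes whose symbol is Slc or Slco with a family number, a letter and a member number, and which had at least 3 CPM (counts scaled to a fixed library total) in at least 3 of the 18 libraries. Of 383 such symbols in the annotation, 222 passed among 12705 genes tested, and 161 did not, of which 43 had no count in any library. Of the 222, 37 belong to the Slc25a family of mitochondrial carriers and 185 to other families. At the edge of the rule, Slc22a3 and Slc44a3 lay just outside with 2.75 and 2.71 CPM in their third-highest library, and Slc22a21 and Slc47a2 lay just inside with 3.12 CPM each. Slc7a11, the cystine and glutamate exchanger, was below it. The fixed list, to which the text refers, holds 21 well-studied transporters of dividing cells. The symbol rule also takes in 4 genes that are not transporters, the binding partners Slc4a1ap, Slc9a3r1 and Slc9a3r2 and the opposite-strand neighbour Slc7a6os of Slc7a6, and Slc25a17, which is known from peroxisomes rather than mitochondria.

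Solute carriers move sugars, amino acids, ions, metals, vitamins and nucleotides across membranes, and each family number names a group related by sequence. Most are made on ribosomes bound to the endoplasmic reticulum (ER), inserted into its membrane by the Sec61 translocon and partner complexes, and then sorted to the plasma membrane, Golgi or lysosome. The Slc25a carriers are instead made on ribosomes in the cytosol or at the mitochondrial surface and pass through the TOM and TIM complexes into the inner mitochondrial membrane. Ddx6 is a DEAD-box helicase of P-bodies that links microRNA-bound and deadenylated mRNAs to translational repression and decapping. Fast-growing ESCs depend on glucose carriers such as Slc2a1 and Slc2a3 and on the amino acid carriers Slc1a5 and Slc7a5 with its partner Slc3a2.

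All 18 libraries came from mouse V6.5 ESCs grown with serum, LIF and the 2 inhibitors of the 2i medium, PD0325901 and CHIR99021, and treated with cycloheximide before lysis. Wild-type (WT) cells gave 3 sucrose gradients, and Ddx6 knockout (KO) cells gave 3, of which 1 came from the CRISPR-made clone 1 and 2 from clone 2, so clone 1 and its gradient cannot be told apart. Each gradient gave a monosome, a low polysome (2 to 4 ribosomes) and a high polysome (over 4 ribosomes) library, so each of the 6 groups held 3 libraries, of 2543617 to 11474550 gene counts each. Reads marked transcript 3′ ends, with about 1 read per molecule, so CPM are levels that need no division by length. Ddx6 itself lay at 143 to 212 CPM in the WT libraries, 55.3 to 82.7 CPM in clone 1 and 9.68 to 26.7 CPM in clone 2. All 8 ESC markers passed the filter with a summed level of 2300 to 5650 CPM, while 6 fibroblast (feeder) markers summed to 4.61 to 11.2 CPM, 5 primitive endoderm markers to 1.97 to 8.7 CPM and 7 epiblast and early lineage markers to 65.5 to 115 CPM in WT and 43.3 to 82.6 CPM in KO, with Col3a1 and Fgf5 at 0. Of the 3 epiblast and early lineage markers tested, 2 were lowered over all fractions, and their part in the results was not tested. Nothing in the labels says that the gradients came from separate cultures, so p-values measure the spread between these gradients.

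Solute carrier mRNAs outside Slc25a took a larger share of every KO fraction. In the high polysome they made up 1.84% ± 0.121 (SD, n = 3) of gene counts in WT and 2.89% ± 0.0454 in KO. In the low polysome the shares were 1.38% ± 0.0919 and 2.15% ± 0.163, and in the monosome 1.2% ± 0.015 and 1.52% ± 0.0327. No KO library overlapped a WT library of the same fraction. The mitochondrial carriers differed little, with 0.422% ± 0.0221 in WT and 0.381% ± 0.0218 in KO high polysomes, where the libraries ran from 0.408% to 0.447% and from 0.356% to 0.397%. A few abundant members carried much of the gain, since 5 of them (Slc2a3, Slc6a6, Slc20a1, Slc29a1 and Slc3a2) held 70.2% of the summed gain in the high polysome. Without those 5 the summed level was still 1.26-fold higher in KO, against 1.63-fold with them, and 129 of 185 members had a higher mean. These are levels relative to the other RNA of a fraction, in bulk samples in which fewer cells of a type and less RNA per cell cannot be told apart.

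**Figure D1:**
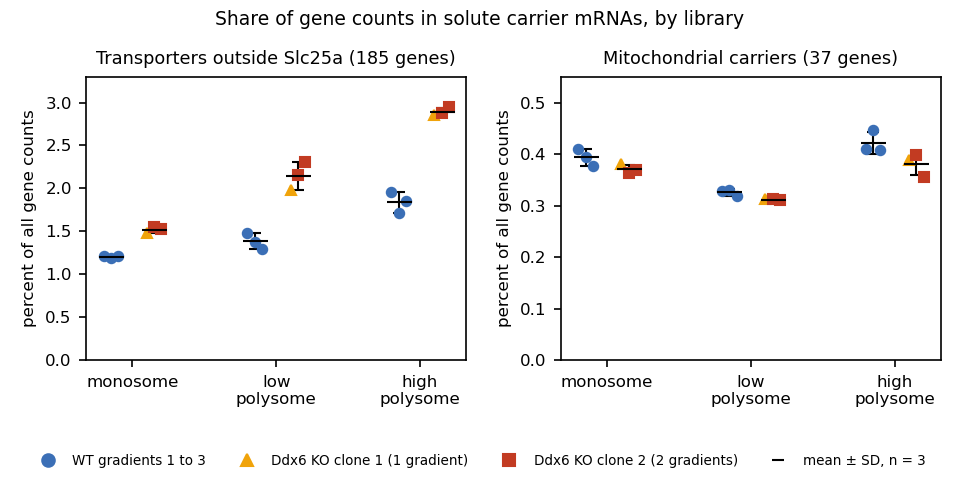
Percent of all gene counts in solute carrier mRNAs (vertical axis, from 0) by polysome fraction, with 1 point per library and the mean ± SD of 3. Outside Slc25a the 3 KO libraries sat above the 3 WT libraries in every fraction, up to 2.94% in the high polysome, while the mitochondrial carriers stayed between 0.31% and 0.447%.

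To ask which members changed in abundance, KO was compared with WT over the mean of the 3 fractions, with limma on all 12705 genes and Benjamini-Hochberg adjustment, which is the test behind every adjusted p here. Of the 222 members, 119 were raised and 40 lowered at an adjusted p under 0.05, or 53.6% and 18%, where 30.6% and 31.5% of all genes tested were. The median log2 change was 0.37 over the members and −0.02 over all genes. Outside Slc25a, 103 of 185 were raised and 33 lowered (median 0.41), and among the mitochondrial carriers 16 of 37 were raised and 7 lowered (median 0.16). Within single fractions, members raised and lowered numbered 79 and 28 in the monosome (18.6% and 20.1% of all genes), 108 and 30 in the low polysome (23.4% and 24.3%) and 100 and 24 in the high polysome (25.3% and 21.1%). Some members passed the expression filter through 1 genotype, 15 through KO libraries and 6 through WT libraries, which selects for a difference. Among the 199 that passed in at least 3 libraries of each genotype, 106 were raised and 37 lowered (53.3% and 18.6%). Of all such genes 30.4% were raised and 30.3% lowered. The 3 fractions of a gradient share a lysate. With the gradient as a random block 114 members were raised and 39 lowered (29.4% and 29.8% of all genes).

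Raised members were spread over all substrate classes, with the highest share in the monocarboxylate families. Of 9 members of the monocarboxylate families (lactate and pyruvate carriers and their relatives), 8 were raised, with a median of 0.84, and 0 were lowered, also at an unadjusted p under 0.05 and with edgeR or DESeq2. Of 12 in the vitamin and nucleoside families, 10 were raised and 1 lowered (median 0.61), and of 27 in the metal families 17 and 3 (median 0.34). Of 7 members classed as lipid by their family number 5 were raised and 1 lowered (median 0.62), and of 22 nucleotide sugar members 11 and 2 (median 0.32). The sugar families held 11 and 4 of 18 (median 0.67). The amino acid families, with 16 raised and 10 lowered of 35 (median 0.16), and the inorganic ion families, with 13 and 8 of 31 (median 0.13), moved both ways.

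Slc40a1 (ferroportin, the iron exporter, ENSMUSG00000025993.10, chr1:45908068-45926523, minus strand) lay at 0, 2.09 and 1.04 CPM in the 3 WT monosome libraries and at 49.8, 35.7 and 37.1 CPM in KO. Its high polysome levels were 0.128, 0.2 and 0.377 CPM in WT and 9.02, 11.7 and 10.4 CPM in KO. It passed the expression filter through KO libraries only, which selects for a difference, and its WT levels rest on 0 to 9 counts a library. The fitted log2 change over the fractions of 5.43 ± 0.39 (SE) is thus a description that depends on the treatment of low counts. Slc39a14, which imports zinc and iron not bound to transferrin, rose from 2.69, 2.5 and 2.64 CPM to 29.7, 27.7 and 25.3 CPM in the high polysome and from 3.98, 4.88 and 6.01 CPM to 19.8, 26.9 and 23.6 CPM in the monosome. Its log2 change over the fractions was 2.92 ± 0.13 (adjusted p = 2e-13), and no groups overlapped. Slc11a1, a metal exporter of phagosomes known from macrophages, lay at 2.44, 3.7 and 4.05 CPM in WT and 14.8, 14.1 and 16.3 CPM in KO high polysomes, a log2 change over the fractions of 1.89 ± 0.19 (adjusted p = 3.1e-08). The zinc exporter Slc30a1 of the fixed list rose by 0.77 ± 0.09 (adjusted p = 1.4e-07), while the zinc importer Slc39a10 gave −0.24 ± 0.13 (adjusted p = 0.11).

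The facilitative glucose carrier Slc2a3 (ENSMUSG00000003153.10, chr6:122727809-122801640, minus strand) had the highest high polysome level of any member in KO. Its high polysome levels were 1716, 1410 and 1666 CPM in WT and 6608, 7903 and 8566 CPM in KO, and its monosome levels 615, 656 and 608 CPM and 1377, 1406 and 1299 CPM. Each KO library was above each WT library of its fraction. The log2 change was 1.12 ± 0.13 in the monosome (adjusted p = 2.1e-06) and 2.27 ± 0.13 in the high polysome (adjusted p = 7.8e-11). Slc2a1, the other main glucose carrier of these cells, lay at 226, 205 and 230 CPM in WT and 584, 594 and 510 CPM in KO high polysomes, and rose by 1.04 ± 0.08 over the fractions (adjusted p = 7.5e-10).

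Among other members of the fixed list, the nucleoside carrier Slc29a1 rose by 1.28 ± 0.09 on the log2 scale over the fractions (adjusted p = 1.9e-10). The lactate exporter Slc16a3 rose by 0.84 ± 0.17 and the monocarboxylate carrier Slc16a1 by 0.28 ± 0.09 (adjusted p = 0.00016 and 0.0095). The Golgi UDP-galactose carrier Slc35a2 rose by 0.94 ± 0.13, the phosphate importer Slc20a1 by 0.68 ± 0.07 and the reduced folate carrier Slc19a1 by 0.42 ± 0.08 (adjusted p = 3.9e-06, 6.3e-08 and 7e-05). All 6 were also above 0 in each single fraction. The sodium, potassium and chloride cotransporter Slc12a2 fell by 0.66 ± 0.13 (adjusted p = 0.00018).

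By the size of the change, Slc38a5, Slc43a3 and Slc35f5 completed the 6 members raised most among those of at least 10 CPM on average. Slc38a5, a glutamine and neutral amino acid carrier, lay at 0.898, 1.3 and 1.41 CPM in WT and 35.7, 41.6 and 44.7 CPM in KO high polysomes. It too passed the filter through KO libraries only, which selects for a difference. Its fitted log2 change over the fractions of 4.68 ± 0.29 rests on 1 to 15 counts a library in WT. Slc43a3, a purine nucleobase carrier, went from 15.1, 17.5 and 15.1 CPM to 103, 91.4 and 92.3 CPM (log2 change over the fractions 2.53 ± 0.12, adjusted p = 2.5e-13). Slc35f5, of the nucleotide sugar families by its number, rose by 2.27 ± 0.26 (adjusted p = 1.9e-07). Below 10 CPM on average, and named after their values were seen, the germ-cell type ADP and ATP carrier Slc25a31 and the calcium-regulated ATP-Mg carrier Slc25a24 had the largest fitted differences within Slc25a. Slc25a31 lay at 0.385, 0.9 and 0.753 CPM in WT and 12.8, 18.5 and 14 CPM in KO high polysomes, and Slc25a24 at 2.18, 1.7 and 1.41 CPM and 21.5, 13.2 and 10.6 CPM. Both passed the filter through KO libraries only, which selects for a difference.

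Among members of at least 10 CPM on average, the 6 lowered most were carriers of bicarbonate, glutamate, sugars and magnesium, and 1 receptor. Slc4a5, a sodium bicarbonate cotransporter, lay at 101, 97.4 and 100 CPM in WT and 22.2, 14.5 and 16.8 CPM in KO high polysomes, and at 33.9, 53.4 and 43.5 CPM and 8.68, 6.53 and 7.57 CPM in monosomes. It fell by 2.49 ± 0.10 on the log2 scale over the fractions (adjusted p = 4.5e-14), with log2 changes of −2.53, −2.42 and −2.51 in the monosome, low and high polysome. Slc1a1, a glutamate and cysteine importer, went from 59.4, 49.5 and 52.8 CPM to 13.2, 9.89 and 13.5 CPM in the high polysome and fell by 2.22 ± 0.12 (adjusted p = 5.6e-12). The inositol carrier Slc5a11 fell by 2.12 ± 0.12, the sodium glucose cotransporter Slc5a1 by 1.83 ± 0.11, the magnesium carrier Slc41a3 by 1.77 ± 0.12 and the lipocalin receptor Slc22a17 by 1.15 ± 0.12 (adjusted p = 1.2e-11, 2.1e-11, 5.8e-11 and 3.2e-08). In these 6 genes every KO library was below every WT library of the same fraction. Slc5a1 and Slc22a17 fell most in the monosome, by 2.46 ± 0.23 and 1.71 ± 0.20, against 1.40 ± 0.15 and 0.78 ± 0.20 in the high polysome, and they are the 2 members lowered in the high polysome whose translation level, defined next, was raised.

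**Figure D2:**
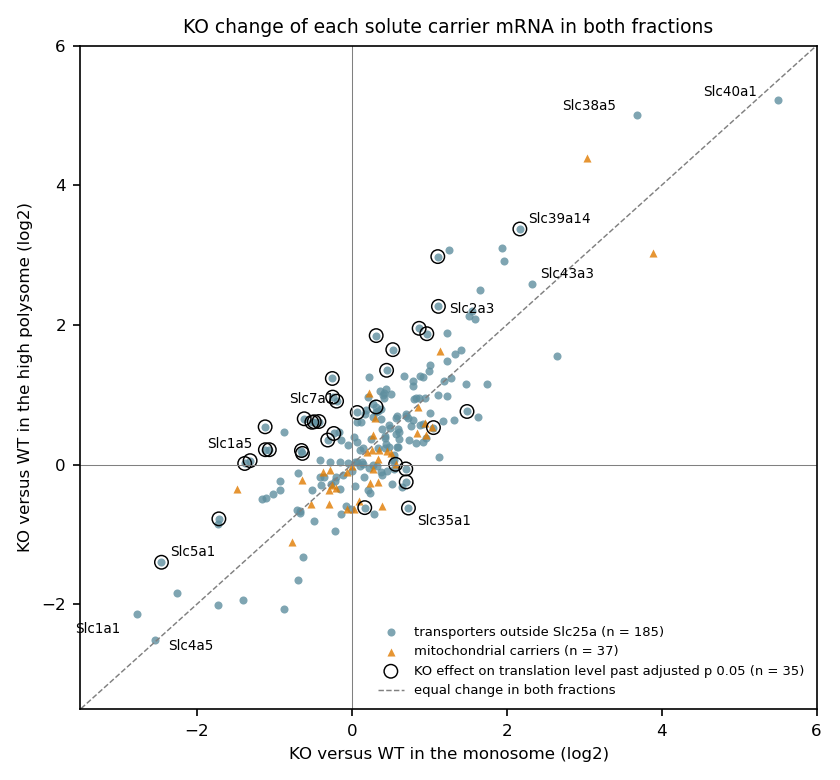
Log2 change of KO against WT in the monosome (horizontal) and in the high polysome (vertical) for each of the 222 members, with mitochondrial carriers as triangles and the 35 members whose KO effect on translation level passed an adjusted p of 0.05 circled. Most members lie near the dashed line of equal change, and circled points such as Slc1a5 (−1.12 and 0.54) and Slc35a1 (0.73 and −0.62) lie off it.

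The translation level of an mRNA was taken as the log2 ratio of its high polysome to its monosome level, and the KO effect on it as that ratio in KO minus that in WT. The effect passed an adjusted p of 0.05 in 28 members as a rise and in 7 as a fall, or 12.6% and 3.15% of the 222, against 10.7% and 7.09% of all genes tested. The share raised was thus near the background. Among the 199 members that passed the filter in both genotypes, 27 were raised and 7 lowered (13.6% and 3.52%), where 11.6% and 7.89% of all such genes were. Scaled by library size alone, which moves the median of all genes from 0.02 to −0.10, 23 members were raised and 18 lowered (7.37% and 10.9% of all genes). With only the 4 groups compared in the fit, which moves that median to −0.07, 25 were raised and 22 lowered (9.84% and 13.7% of all genes). All 28 raised members lay outside Slc25a, where edgeR also called 28, and of the mitochondrial carriers 1 was above and 6 were below 0 at an unadjusted p under 0.05. Of these carriers edgeR called 0 as raised and 1 as lowered, and the DESeq2 Wald test 0 and 6. Among all genes edgeR called 11% and 7.87%, and the DESeq2 Wald test 10.5% and 10.8%. In 27 of the 28 raised and in all 7 lowered members the 3 KO ratios did not overlap the 3 WT ratios. No overlap of that kind was found for 38.9% of members outside Slc25a, 27% of mitochondrial carriers and 39% of all genes. Of the 28 raised members, 19 were raised in the high polysome and 10 lowered in the monosome, while 7 were raised in the monosome and 2 lowered in the high polysome. Of the 7 lowered, 6 were raised in the monosome. Leaving out each gradient in turn, 9 of the 28 raised (Slc1a4, Slc1a5, Slc29a2, Slc2a1, Slc2a3, Slc4a7, Slc5a6, Slc7a1 and Slc7a3) and 1 of the 7 lowered (Slc39a1) kept their call each time.

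**Figure D3:**
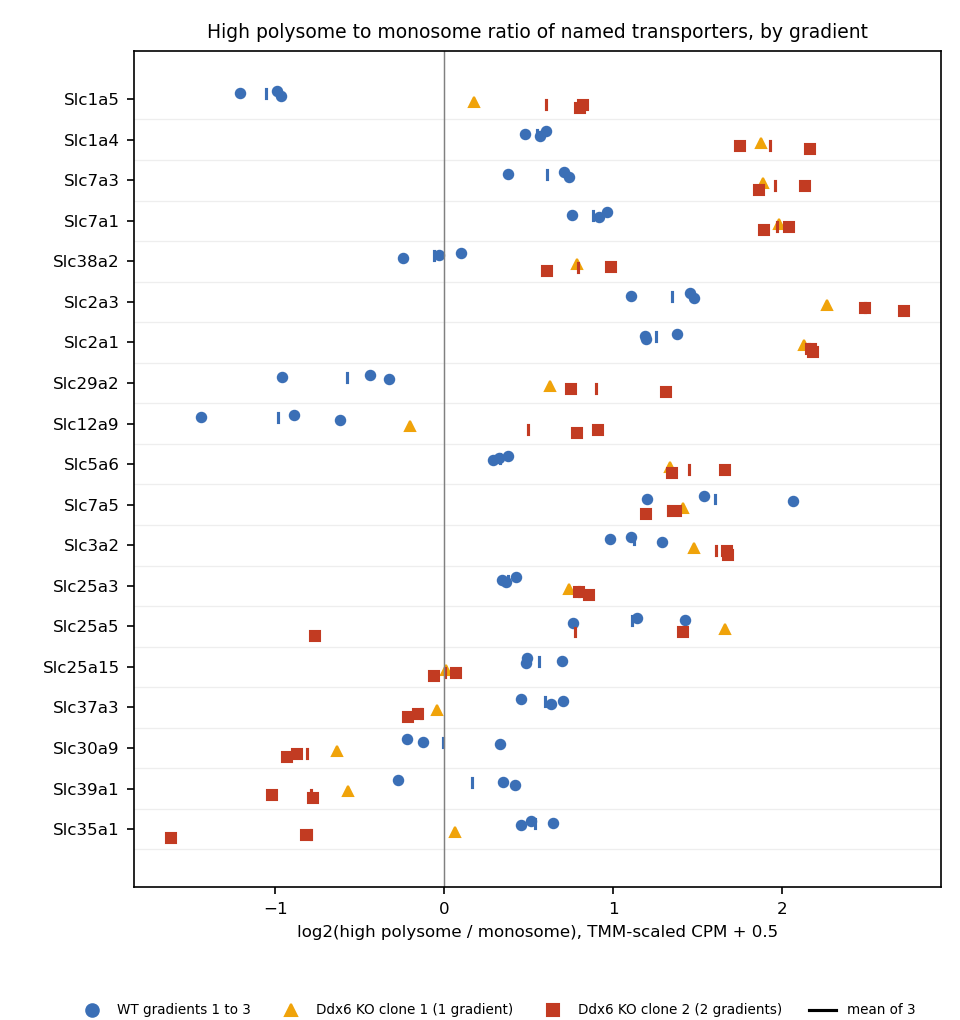
Log2 ratio of high polysome to monosome level (horizontal axis) of 19 named members, with 1 point per gradient: WT as circles, KO clone 1 as triangles, KO clone 2 as squares, and the mean of 3 as a bar. For Slc1a5 the WT gradients lie at −1.21 to −0.97 and the KO gradients at 0.18 to 0.82, while for Slc35a1 the KO gradients lie at −1.62 to 0.06, below all WT gradients.

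Among raised members of at least 10 CPM on average, Slc1a5 had the largest KO effect on translation level, while below that level Slc23a4, named after its value was seen, had 1.87 ± 0.61 at a mean of 2.33 CPM. Slc1a5 (ASCT2, the main glutamine importer of many dividing cells, ENSMUSG00000001918.17, chr7:16781340-16798274, plus strand) lay at 840, 872 and 843 CPM in WT monosomes and at 444, 355 and 385 CPM in KO monosomes. In high polysomes it lay at 428, 377 and 424 CPM in WT and 501, 626 and 672 CPM in KO. Its log2 ratios of high polysome to monosome were −0.97, −1.21 and −0.99 in WT and 0.18, 0.82 and 0.80 in KO. Thus its level relative to the other RNA of a fraction was higher in the monosome in all 3 WT gradients. In all 3 KO gradients that relative level was higher in the high polysome. The KO effect was 1.66 ± 0.19 on the log2 scale (adjusted p = 3.6e-05), with a fall of 1.12 ± 0.13 in the monosome and a rise of 0.54 ± 0.13 in the high polysome (adjusted p = 2.2e-06 and 0.0025).

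Slc1a4 (ASCT1, a serine and alanine exchanger of the same family) fell in the monosome from 55.4, 52.7 and 54.1 CPM to 18.5, 25.6 and 18.6 CPM, while its high polysome levels overlapped, with 82.1, 73.7 and 82.1 CPM in WT and 69.3, 87.2 and 85 CPM in KO. Its ratios did not overlap, and the KO effect on translation level was 1.40 ± 0.22 (adjusted p = 0.00055). The arginine and lysine importers Slc7a3 and Slc7a1 both had higher ratios in KO, with 0.74, 0.37 and 0.71 in WT and 1.88, 2.13 and 1.86 in KO for Slc7a3. For Slc7a1, named like Slc5a6 after its values were seen, the ratios were 0.91, 0.76 and 0.96 and 1.98, 2.04 and 1.89. The KO effect was 1.37 ± 0.19 for Slc7a3 and 1.10 ± 0.15 for Slc7a1 (adjusted p = 0.00015 and 0.00013). Slc7a3 fell in the monosome, from 109 ± 11.1 to 44 ± 1.78 CPM (SD, n = 3), with high polysome levels of 166 ± 9.62 and 173 ± 19.4 CPM. Slc7a1 fell in the monosome by 0.48 ± 0.10 and rose in the high polysome by 0.61 ± 0.10 (adjusted p = 0.0011 and 5.2e-05).

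The alanine and glutamine importer Slc38a2 had ratios of −0.25, −0.03 and 0.10 in WT and 0.78, 0.99 and 0.61 in KO, a KO effect of 0.85 ± 0.20 (adjusted p = 0.0063) that did not pass without WT gradient 1. The glycine carrier Slc6a9 had ratios of −0.62, −0.83 and −0.90 in WT and −0.10, 0.65 and 0.93 in KO (1.33 ± 0.37, adjusted p = 0.018), and the large neutral amino acid carrier Slc43a1 0.05, −0.90 and −0.18 and 0.09, 1.17 and 1.32 (1.27 ± 0.42, adjusted p = 0.043). Both gave KO ratios above all WT ratios, but lay at 8.94 to 29.7 CPM in monosomes and high polysomes, and neither call held in all fits without 1 gradient. By their mean over the 18 libraries, Slc7a5 and Slc3a2 were the 2 most abundant mRNAs of the amino acid families, and neither gave a call. Slc7a5 (LAT1, the exchanger of leucine and other large amino acids) had ratios of 2.07, 1.20 and 1.53 in WT and 1.41, 1.37 and 1.19 in KO, which overlapped (KO effect −0.27 ± 0.34, adjusted p = 0.61). Its partner chain Slc3a2 had ratios of 1.29, 0.98 and 1.10 and 1.48, 1.68 and 1.68, which did not overlap, and a KO effect of 0.49 ± 0.19 (adjusted p = 0.076).

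Both glucose carriers were raised. Slc2a3 had ratios of 1.48, 1.10 and 1.45 in WT and 2.26, 2.49 and 2.72 in KO, and Slc2a1 1.20, 1.19 and 1.38 and 2.13, 2.17 and 2.18. The KO effect was 1.15 ± 0.19 for Slc2a3 and 0.90 ± 0.20 for Slc2a1 (adjusted p = 0.00067 and 0.0047), on top of the rise in abundance. Slc29a2 (ENT2, an equilibrative nucleoside carrier) moved from ratios below 0 in WT, −0.33, −0.96 and −0.44, to ratios above 0 in KO, 0.63, 0.75 and 1.31, with an effect of 1.48 ± 0.30 (adjusted p = 0.0027). Slc5a6, the sodium-dependent carrier of biotin and pantothenate, had ratios of 0.29, 0.32 and 0.38 in WT and 1.34, 1.66 and 1.34 in KO (1.11 ± 0.23, adjusted p = 0.0032). Slc12a9, of the cation and chloride cotransporter family, had ratios of −0.62, −1.44 and −0.89 in WT and −0.20, 0.91 and 0.78 in KO (1.53 ± 0.33, adjusted p = 0.0043), with clone 1 nearest to WT and no call without WT gradient 2. The inositol importer Slc5a3, whose exons overlap those of Mrps6 on the same strand, had ratios of −0.55, 0.28 and −0.28 and 0.79, 0.73 and 1.68 (1.28 ± 0.38, adjusted p = 0.026).

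Of the other members of the fixed list, Slc20a1 was raised by 0.51 ± 0.17 (adjusted p = 0.048), a call that 3 of 10 alternative settings kept and that held without KO gradient 1 but not without any of the others. No call was made for the monocarboxylate carriers Slc16a1 (0.10 ± 0.22, adjusted p = 0.79) and Slc16a3 (0.50 ± 0.42, 0.42). Nor was one made for Slc12a2 (0.59 ± 0.33, 0.22), Slc19a1 (−0.23 ± 0.19, 0.42), Slc29a1 (0.41 ± 0.22, 0.2), Slc30a1 (0.42 ± 0.21, 0.17), Slc39a10 (0.09 ± 0.32, 0.87) or Slc35a2 (0.00 ± 0.33, 0.999), each with the log2 effect, its SE and the adjusted p.

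Of the 7 lowered members, 3 are in the metal families, in which 2 others, Slc39a14 and Slc39a4, were raised. Slc39a1 (ZIP1, a zinc importer of the plasma membrane, ENSMUSG00000052310.9, chr3:90248172-90253612, plus strand) lay at 272, 250 and 299 CPM in WT and 429, 478 and 429 CPM in KO monosomes, and at 364, 318 and 247 CPM and 289, 236 and 250 CPM in high polysomes. Its monosome groups did not overlap, while its high polysome groups did. With ratios of 0.42, 0.34 and −0.27 in WT and −0.57, −1.02 and −0.78 in KO, the KO effect was a log2 fall of 0.95 ± 0.21 (adjusted p = 0.0045). Slc35a1, which brings CMP-sialic acid into the Golgi (ENSMUSG00000028293.14, chr4:34663257-34687438, minus strand), had ratios of 0.45, 0.64 and 0.51 in WT and 0.06, −0.82 and −1.62 in KO, with the clone 1 gradient nearest to WT. It fell by 1.35 ± 0.34 (adjusted p = 0.01), a call lost without WT gradient 2 and without KO gradient 3.

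Slc30a9, of the zinc exporter family, fell by 0.78 ± 0.19, with ratios of 0.33, −0.13 and −0.22 in WT and −0.64, −0.87 and −0.93 in KO (adjusted p = 0.0092). The copper importer Slc31a1 fell by 0.76 ± 0.21 (adjusted p = 0.019), with ratios of 1.30, 1.0 and 0.98 and 0.91, −0.10 and 0.19, clone 1 being nearest to WT. Its call held in 2 of 6 fits without 1 gradient and was lost with the coding-length trend removed (adjusted p = 0.499). Slc37a3, of the sugar-phosphate exchanger family, rose in all 3 fractions but more in the monosome (1.49 ± 0.12) than in the high polysome (0.76 ± 0.11), so that its ratio fell by 0.73 ± 0.16 (adjusted p = 0.0053). The same held for Slc35b4, a carrier of UDP-xylose and UDP-N-acetylglucosamine, whose levels rose by 1.05 ± 0.13 in the monosome and 0.53 ± 0.12 in the high polysome while its ratio fell by 0.52 ± 0.18 (adjusted p = 0.044). The Slc35b4 call held in 1 of 6 fits without 1 gradient and was lost with the coding-length trend removed (adjusted p = 0.249). The call of Slc30a9 was lost without KO gradient 3, and that of Slc37a3 without WT gradient 2.

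Grouped by the substrate class of their family number, the medians of the members differed in sign. In the 35 members of the amino acid families the median log2 ratio of high polysome to monosome lay at 0.43, 0.41 and 0.49 for WT and at 0.88, 0.99 and 1.04 for KO, gradient by gradient. In the 31 inorganic ion members it was 0.18, 0.26 and 0.34 in WT and 0.69, 0.65 and 0.44 in KO. In the 22 nucleotide sugar members of the Slc35 family it was 0.12, 0.20 and −0.04 in WT, and in KO 0.03 in clone 1 and −0.56 and −0.70 in clone 2. The first pair of classes did not overlap between genotypes, whereas in the nucleotide sugar class the clone 1 gradient lay within the WT range. Over all genes the same medians were −0.03, −0.01 and −0.01 in WT and 0.07, 0.03 and 0.01 in KO, which did not overlap either. Nor did those over all members outside Slc25a, at 0.33, 0.28 and 0.33 in WT and 0.59, 0.35 and 0.36 in KO. By gene, 9 of 35 amino acid members were raised and 0 lowered, 8 of 31 inorganic ion members were raised and 0 lowered, 5 of 18 sugar members were raised and 1 lowered, 2 of 27 metal members were raised and 3 lowered, and 0 of 22 nucleotide sugar members were raised and 2 lowered, against 10.7% raised and 7.09% lowered of all genes tested. The inorganic ion share of 25.8% was near that of protein-coding genes of at least 2000 nt, of which 24.9% were raised. Without the genes that are not transporters, 9 of 34 amino acid and 7 of 28 inorganic ion members were raised. None of the amino acid and inorganic ion members was below 0, and none of the nucleotide sugar members above 0, at an unadjusted p under 0.05 with limma, edgeR or DESeq2. The median KO effect over these classes was 0.49, 0.51, 0.37, −0.12 and −0.35, and 0.02 over all genes. With the trend on coding length removed, the medians were 0.33 for the amino acid, 0.13 for the inorganic ion, −0.09 for the metal and −0.16 for the nucleotide sugar families. In the other classes the median KO effect, with that trend left in, was 0.27 for 7 lipid and 0.25 for 9 monocarboxylate members. It was 0.27 for 12 vitamin and nucleoside and −0.09 for 24 organic ion members.

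**Figure D4:**
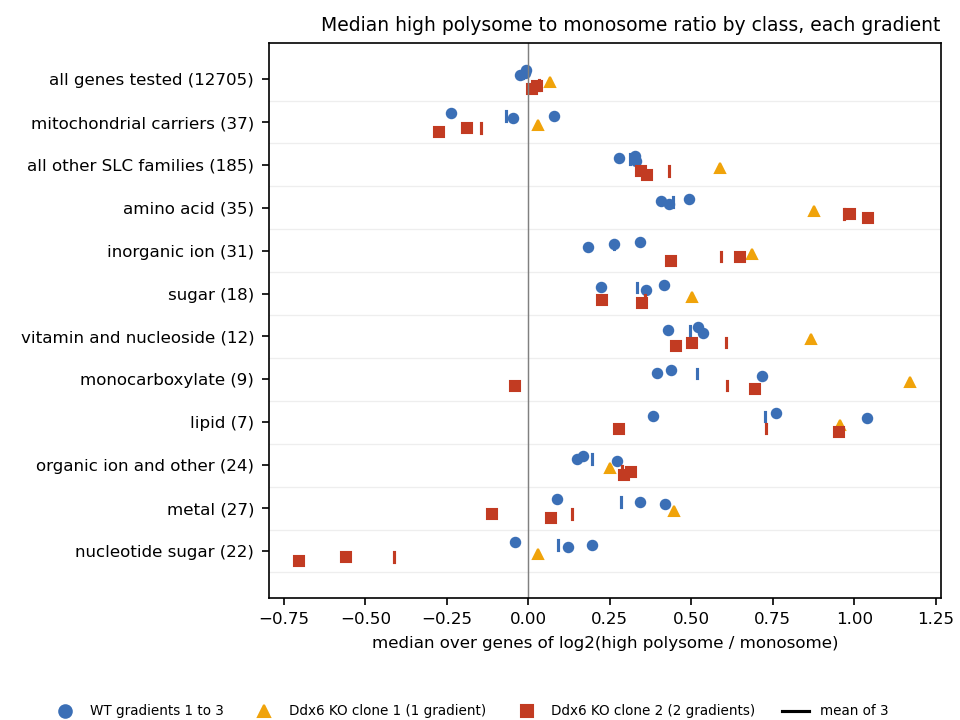
Median log2 ratio of high polysome to monosome level (horizontal axis) over the members of each substrate class, with the number of genes in brackets and 1 point per gradient. The amino acid class lies at 0.41 to 0.49 in WT and 0.88 to 1.04 in KO, while the KO gradients of the nucleotide sugar class lie at −0.70 to 0.03.

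Mitochondrial carriers were then set against the other, mostly ER-inserted families. The median KO effect on translation level was −0.14 over 37 mitochondrial carriers, with 0 raised and 1 lowered, and 0.10 over 185 others, with 28 raised and 6 lowered. By gradient, the median ratio of the mitochondrial carriers minus that of the others was −0.38, −0.20 and −0.56 in WT and −0.56, −0.53 and −0.64 in KO. The gap was thus below 0 in both genotypes, and its range in KO overlapped the range in WT. It widened by 0.196 on average, against an SD of 0.181 among the WT gradients. Slc25a15, the ornithine carrier of the urea cycle, was the only one called in the fit described above, with ratios of 0.48, 0.70 and 0.49 in WT and 0.01, 0.07 and −0.06 in KO. Its KO effect was a fall of 0.56 ± 0.16 (adjusted p = 0.021), which did not pass when WT gradient 2, or either gradient of KO clone 2, was left out. Over the alternative settings 0 to 1 mitochondrial carriers were raised and 0 to 6 lowered.

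None of the 5 mitochondrial carriers of the fixed list passed the test. The phosphate carrier Slc25a3 had ratios of 0.37, 0.34 and 0.43 in WT and 0.74, 0.79 and 0.86 in KO, which did not overlap, with an effect of 0.42 ± 0.15 (adjusted p = 0.055). The ADP and ATP exchanger Slc25a4 had overlapping ratios, 1.19, 1.58 and 1.47 and 1.88, 1.65 and 1.51 (0.26 ± 0.17, adjusted p = 0.3). Its relative Slc25a5 lay at 279, 285 and 66.5 CPM in the KO high polysomes, with gradient 3 far below the others (−0.35 ± 0.71, adjusted p = 0.77). Reads of Slc25a4 and Slc25a5 can match processed copies elsewhere in the genome, and only uniquely placed reads were counted, so their levels are uncertain. The citrate carrier Slc25a1 (−0.04 ± 0.20) and the peroxisomal Slc25a17 (−0.04 ± 0.34) lay near 0 (adjusted p = 0.92 and 0.95).

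The classes also differ in coding length, and the KO effect moved with it. Coding sequences had a median of 954 nt over the mitochondrial carriers (822 to 2031) and 1596 nt over the other members (429 to 3711), against 1353 nt over 11773 protein-coding genes. The rank correlation (Spearman's rho) of the KO effect with coding length was 0.543 across those genes, across the other members 0.394, and across the mitochondrial carriers −0.0316 (n = 37), given as descriptions since genes of 1 set of libraries are not independent. In the range of 800 to 1200 nt, which holds 31 mitochondrial carriers and 28 other members, the median KO effect was −0.26 and −0.30, and −0.15 over all 2319 protein-coding genes in it. Within that range the median of the mitochondrial carriers was not below that of the others. Among members of 1600 to 2000 nt, 7 of 15 amino acid members were raised (median 0.91), and 213 of 1341 protein-coding genes of that range were (median 0.23). At 1200 to 1600 nt 2 of 16 amino acid members were raised (median 0.28), and at 2000 nt or more 0 of 3 (median −0.04). The inorganic ion members are mostly long, and the 22 of at least 2000 nt had a median of 0.57, where all 3366 such genes had 0.48. The 16 nucleotide sugar members of 800 to 1200 nt had a median of −0.35. With the trend on coding length removed from each library, 12 of the 28 raised members kept their call (Slc12a9, Slc1a4, Slc1a5, Slc22a17, Slc29a2, Slc2a1, Slc2a3, Slc38a2, Slc39a14, Slc5a6, Slc7a1 and Slc7a3) and 4 of the 7 lowered (Slc30a9, Slc35a1, Slc37a3 and Slc39a1). Of those 12, 8 also kept it without each gradient.

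**Figure D5:**
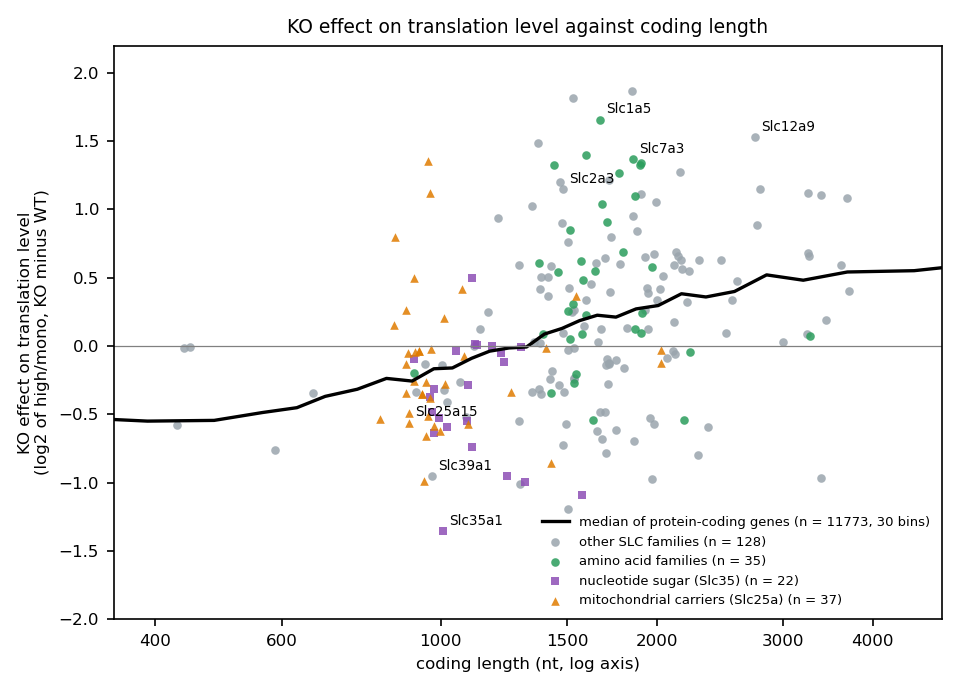
KO effect on translation level (vertical axis, log2) against coding length (horizontal, log axis, nt) for the members, coloured by class, with the running median of 11773 protein-coding genes in 30 bins as a line. The mitochondrial carriers and Slc35 members cluster near 1000 nt on both sides of the line, and most amino acid members of 1600 to 2000 nt lie above it.

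In WT cells alone, the question was which members had higher relative levels in heavy or in light fractions with Ddx6 present. The high polysome to monosome ratio was above 0 at an adjusted p under 0.05 in 72 of 185 members outside Slc25a and below 0 in 34, and in 10 and 10 of 37 mitochondrial carriers. Over all genes tested 28.9% were above and 32.2% below. The medians were 0.35, −0.10 and −0.02. Highest, among members of at least 10 CPM on average, were Slc9a3r1, a scaffold protein of the microvilli, at 1.96 ± 0.21, Slc16a1 at 1.80 ± 0.16, Slc7a5 at 1.6 ± 0.24 and the amino acid carrier Slc38a4 at 1.54 ± 0.15 (adjusted p = 1.1e-07, 5.4e-09, 7.7e-06 and 3.3e-08).

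Among members of at least 10 CPM on average, the 4 lowest WT ratios were of mitochondrial carriers, and among them were both mitoferrins, which bring iron into mitochondria for heme and iron-sulfur cluster synthesis. Mitoferrin-1, Slc25a37 (ENSMUSG00000034248.7, chr14:69241848-69285112, minus strand), lay at 137, 121 and 162 CPM in the WT monosomes, 46.4, 44.2 and 51 CPM in the low and 13.7, 10.0 and 13.4 CPM in the high polysomes. Its log2 ratio was −3.51 ± 0.17 (adjusted p = 1.1e-12). Mitoferrin-2, Slc25a28, went from 227, 206 and 212 CPM in monosomes to 29.9, 33.6 and 29.9 CPM in high polysomes, a ratio of −2.79 ± 0.15 (adjusted p = 4.4e-12). Every monosome library of both genes was far above every high polysome library. Slc25a39, the mitochondrial glutathione importer, was among the most abundant carriers in the monosome, 909, 901 and 888 CPM, with 1089, 967 and 984 CPM in the low and 214, 185 and 191 CPM in the high polysomes (ratio −2.20 ± 0.13, adjusted p = 2.2e-11). The calcium-regulated carrier Slc25a23 had a ratio of −2.72 ± 0.25 (adjusted p = 1.1e-08). Slc25a38, the glycine carrier needed for heme synthesis and named after its value was seen, had −2.14 ± 0.17 (adjusted p = 1.1e-09). In KO the ratios of the first 3 also lay below −2, at −4.11, −3.75 and −3.31 for Slc25a37, −3.53, −2.94 and −3.5 for Slc25a28 and −2.62, −2.04 and −2.13 for Slc25a39, and none of these 3 had a called KO effect on translation level (adjusted p = 0.47, 0.073 and 0.83).

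The step from monosome to low polysome moved fewer genes. The KO effect on the log2 ratio of low polysome to monosome rose in 10 members, 8 outside Slc25a and 2 in it, and fell in 0, against 2.31% and 2.39% of all genes. With limma and edgeR 0 were lowered, although 9 were below 0 at an unadjusted p under 0.05 with limma, and the DESeq2 Wald test called 3. The 10 were Slc7a1 (0.79 ± 0.15), Slc7a3 (1.03 ± 0.19), Slc1a5, Slc2a1, Slc2a3, Slc29a2, Slc30a1, the borate and proton carrier family member Slc4a11, and the abundant mitochondrial carriers Slc25a3 (0.74 ± 0.15) and Slc25a4 (0.74 ± 0.18), with adjusted p of 0.00699 to 0.0481. Slc25a3 fell in the KO monosome, where WT had 1058, 1045 and 914 CPM and KO 626, 668 and 643 CPM, and its low polysome groups overlapped at 517, 509 and 485 and 483, 594 and 546 CPM. Leaving out 1 gradient gave 0 raised members without KO gradient 3 and 21 without KO gradient 1 (0.182% and 3.85% of all genes).

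The machinery that inserts these proteins was listed beside them. Of 28 genes of ER insertion (the signal recognition particle and its receptor, Sec61, the translocon-associated proteins and the ER membrane complex), 2 were raised in translation level and 6 lowered, with a median KO effect of −0.46. The raised genes were Emc1 (1.55 ± 0.27, adjusted p = 0.001) and Srp68, and Ssr3 (−1.32 ± 0.28, adjusted p = 0.0036) had the smallest p among the lowered. Of 15 genes that import mitochondrial carriers, 3 were called, Timm10, Timm22 and Timm10b, all lowered, with a median of −0.44. Of 12 genes of other mitochondrial membrane proteins, without an Slc25a symbol, 3 were called, all lowered (Mtch1, Mpc2 and Mtch2, median −0.30). Slc8b1 in this list is also counted among the members outside Slc25a. Of 19 ABC transporters, the other large class of ER-inserted carriers, 6 were raised and 2 lowered (median 0.45), with Abcc5 up by 1.06 ± 0.18 (adjusted p = 0.00093) and the drug pump Abcb1a down by 1.23 ± 0.26 (adjusted p = 0.0035). The lists differ in coding length too, with medians of 794 nt for ER insertion and 300 nt for carrier import. The medians were 936 nt for the other mitochondrial membrane proteins and 3828 nt for the ABC transporters. Of all genes tested 10.7% were raised and 7.09% lowered. Of protein-coding genes under 800 nt 22.5% were lowered (median −0.46), and of those of at least 2000 nt 24.9% were raised (median 0.48), against 21.4% lowered for ER insertion and 31.6% raised for the ABC transporters.

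Ddx6 acts with microRNAs, and several ESC-enriched microRNAs of the miR-290 and miR-302 clusters, though not every member of them, share 1 seed. The mature sequences of a member of each cluster (RefSeq, GRCm38.p6) are shown with the seed, bases 2 to 8, in capitals, so that the match in the transporter mRNAs can be read beside them:
mmu-miR-294-3p: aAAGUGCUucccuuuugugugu
mmu-miR-302b-3p: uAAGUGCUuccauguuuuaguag
The full 8-base match AGCACTTA, searched on the sense strand of annotated 3′ UTRs, was found in 9 members, or 4.05%, and in 3.3% of protein-coding genes tested. Of these sites 3 are shown, those of the only mitochondrial carrier with the match, of the only inorganic ion carrier and of the member raised in translation level, with the match in capitals and 10 bases on each side (GRCm38, from the Gencode M21 transcripts):
Slc25a32 (chr15:39092075-39092102, minus strand): agcaaagtcaAGCACTTAcaaaatgaca
Slc43a2 (chr11:75577530-75577557, plus strand): gcacacagtaAGCACTTAataaatgtat
Slc4a8 (chr15:100816365-100816392, plus strand): ttgctatggaAGCACTTAggtttccagg
Of the 9 members with the match, 1 was raised in translation level, where 26 of 181 members with neither 7-base match were. Of 388 protein-coding genes with the match 61 were raised, and of all genes tested 10.7%. The raised member was the leucine carrier Slc43a2, whose ratios were 0.83, 0.72 and 0.41 in WT and 1.20, 1.82 and 1.56 in KO (0.90 ± 0.28, adjusted p = 0.029). Its call held in 1 of 6 fits without 1 gradient. It was lost with no filter on low counts and with the coding-length trend removed (adjusted p = 0.109). The KO effect was 0.66 ± 0.24 for the sodium bicarbonate carrier Slc4a8 and −0.99 ± 0.38 for the folate and FAD carrier Slc25a32 (adjusted p = 0.063 and 0.076). The median over the 9 was 0.37, against 0.03 over 181 members with neither 7-base match, and 0.16 and −0.01 over 388 and 9518 protein-coding genes. The 9 values span −0.99 to 0.90, and these genes were named for the match, outside the rule for named members.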

How the data were processed

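The authors prepared QuantSeq 3′ FWD libraries from RNA of sucrose gradient fractions and deposited raw counts of reads per gene. Per the labels, reads were trimmed with cutadapt 1.14, aligned to mm10 with STAR 2.5.3a and counted by strand with featureCounts 1.5.3, keeping uniquely mapped reads. Counts of 3′ ends do not grow with transcript length, and a gene with near-identical copies loses reads. Gene symbols, coding lengths and 3′ UTRs came from Gencode M21 here, which matched 51274 of 51467 gene IDs. The 92 spike-in sequences were left out.

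The 18 libraries held 2543617 to 11474550 gene counts, so genes near 3 CPM rest on few reads, and counting error alone is wide there. Genes with at least 3 CPM in 3 libraries were kept (12705), scaled by TMM, and fitted with limma 3.58.1 voom (R 4.3.3) with 1 mean per genotype and fraction over all 18 libraries. P-values were adjusted by Benjamini-Hochberg over all 12705 genes for each contrast, with a threshold of 0.05. Ratios per gradient used TMM-scaled CPM with 0.5 added. Alternatives were edgeR 4.0.16 quasi-likelihood, DESeq2 1.42.0, other scalings and filters, single gradients left out, a coding-length trend removed, and replicate blocks. The gradient as a random block, and leaving out the 3 binding partners or these and Slc7a6os, were added after seeing the data. Deviations from group means of fractions of the same gradient correlated at −0.173 to 0.464 over 18 pairs. Those of WT and KO libraries of the same number and fraction correlated at −0.485 to 0.243 over 9 pairs. These ranges overlap, so the correlations cannot tell whether WT and KO gradients of the same number were handled together. The main fit did not pair them.

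Named members were a fixed list of 21 transporters and, among called members of at least 10 CPM on average, those of the largest change per direction: up to 8 outside Slc25a and 6 within it for the KO effect on translation level, 6 over all fractions and 4 in WT. Other lists were given by counts with up to 4 genes of the smallest p. Substrate classes follow the family number. Members and lists were chosen with earlier results of these data known. Exons of Slc5a3 overlap Mrps6. One site is not reported here.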

Additional observations from a re-analysis of the deposited data

Results flagged for a closer look

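In 20 members whose KO effect on translation level passed the test of the interaction, the KO change had opposite signs in the monosome and in the high polysome. In 3 of them the change in each of these fractions also passed its own test. Since that effect is the difference between these changes, its call favours opposite signs, and the share among all called genes was not counted. The glutamine importer Slc1a5 changed by −1.12 on the log2 scale in the monosome and 0.54 in the high polysome, a difference of 1.66. The arginine importer Slc7a1, named after its values were seen, changed by −0.48 and 0.61, a difference of 1.10. The CMP-sialic acid carrier Slc35a1 changed the other way, by 0.73 and −0.62, a difference of −1.35, and its call was lost without WT gradient 2 or KO gradient 3. With 3 libraries a group, no test for single outlying libraries was made.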

How the results depend on the processing

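The count of members raised over all fractions (119) and lowered (40) stayed within 100 to 122 and 32 to 42 under all alternatives. For the KO effect on translation level, 28 raised became 12 with no filter on low counts, 13 with the coding-length trend removed and 12 to 30 without single gradients. The share raised among all genes of each fit moved too, from 10.7% to 3.57% with no filter and 4.75% with the length trend removed. It was 3.73% to 11.9% without single gradients. The 7 lowered members became 18 with library sizes, 17 with the DESeq2 Wald test, 22 with only the groups compared and 2 to 15 without single gradients. Among all genes the share lowered went from 7.09% to 10.9% with library sizes, 10.8% with DESeq2 and 13.7% with only the groups compared. Without single gradients it was 2.2% to 8.86%. In the low polysome to monosome comparison, 10 raised became 6 with no filter, 18 with DESeq2, 4 with the length trend removed and 0 to 21 without single gradients. Among all genes the share raised went from 2.31% to 0.777% with no filter, 4.35% with DESeq2 and 1.07% with the length trend removed. Without single gradients it was 0.182% to 3.85%. The 0 lowered members became 3 with library sizes, 1 with no filter, 2 with at least 10 CPM and 3 with DESeq2. They became 2 with gradient as a random block and 0 to 1 without single gradients. Among all genes the share lowered went from 2.39% to 3.89%, 1.08%, 3.64%, 4.2% and 3.11% in these settings, in the same order. Without single gradients it was 0.0476% to 2.65%. The 44 members below 0 in WT became 28 to 46 without single gradients, while the share of all genes went from 32.2% to 27.3% to 33%. The replicate block gave 32 raised and 9 lowered for translation level (12.2% and 8.46% of all genes). It changed no count over all members by over 1.5 times, while within Slc25a the 1 lowered became 3 and the 0 raised became 1. The cause of these changes was not tested. The median effect of mitochondrial minus other members, −0.233, ranged from −0.386 with at least 10 CPM to −0.108 with the length trend removed, and was −0.256 without the 4 genes that are not transporters.

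Among named members without a call, the sign of the translation effect changed in 6. Without single gradients it ran from −0.123 to 0.295 for Slc16a1, −0.144 to 0.0427 for Slc25a1, −0.253 to 0.236 for Slc25a17, −0.797 to 0.407 for Slc25a5, −0.162 to 0.0966 for Slc35a2 and −0.23 to 0.377 for Slc39a10. With the length trend removed it was −0.000312 for Slc16a1, 0.201 for Slc25a1, 0.205 for Slc25a17 and −0.269 for Slc39a10. With library sizes it was −0.0254 for Slc16a1, −0.122 for Slc35a2 and −0.0283 for Slc39a10, and with no filter −0.0115, −0.108 and −0.0274. With DESeq2 it was −0.0413 for Slc35a2 and −0.0359 for Slc39a10, and for Slc35a2 −0.0523 with DESeq2 size factors and −0.0907 with only the groups compared. With edgeR it was 0.0188 for Slc25a17.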
